A study of Saccharomyces cerevisiae with 12 samples.

Results

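The genes for the proteins of the cytosolic ribosome were followed in an agave yeast and a wine yeast during fermentation. They were taken from the array table by their standard symbols, RPL and RPS with a number and, where present, the letter A or B, and RPP0, RPP1 and RPP2 with or without a letter. The pattern gave 133 of 6214 genes on the array. One of them, RPP1 (YHR062C), codes for a subunit of RNase P, the enzyme that trims transfer RNA, and is no ribosomal protein. The remaining 132 comprised 78 genes of the large subunit, 5 of them for its stalk, and 54 of the small subunit, and they are the genes counted below. The pattern also fits RPL36B, RPL41B, RPL43B, RPS19A and RPS30A, which were not analysed here.

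Both strains are Saccharomyces cerevisiae. T73 is sold commercially for wine making, and ITD00185 is read here as the agave yeast that the title names. The 4 groups were ITD00185 at 48 h, T73 at 48 h, ITD00185 at 96 h and T73 at 96 h, all grown in synthetic agave must at 28 ºC, with 3 biological replicates per group according to the labels. Each of the 12 arrays compared Cy5-labelled RNA of 1 culture with a Cy3-labelled mix of samples of the same time, of makeup not given in the sources used here, and no array had the dyes exchanged.

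A ribosome joins a large subunit, which forms the peptide bonds, and a small subunit, which reads the messenger RNA. In budding yeast most of the protein genes exist as a pair of copies, named A and B, left by an ancient duplication of the genome, and many pairs code for identical or nearly identical proteins. The genes form a regulon that Rap1, Fhl1, Ifh1 and Sfp1 drive at the promoter and that the TOR and protein kinase A pathways turn up with nutrients and down on starvation or stress. Transcripts of near-identical copies can hybridize to each other's probes, so that an A and a B value are not always separate measurements.

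Values below are log2 ratios of the strain to the mix. The ratio likely runs strain over mix, which the labels do not state, and all signs below depend on it. A strain difference is ITD00185 minus T73 on this scale, ± the standard error of a linear model fitted with limma to the 12 arrays (n = 3 per group, or fewer where a gene lacked values). The mix of a time falls out of the difference if its arrays shared it. A gene is called lower or higher in ITD00185 where limma's p, adjusted by Benjamini-Hochberg over 5474 genes, is under 0.05. A call is said to hold where it also passed with each of the 12 arrays left out in turn. Of the ribosomal protein genes 126 had enough values to be tested, 75 of the large and 51 of the small subunit. Each result was computed on the values as deposited and after every array had been brought to one median and one spread, called scaled below, because the spread of the arrays (the scaled median absolute deviation over genes) ran from 0.852 to 1.84.

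One array stood apart from the others of its group before any test. ITD00185 48 h replicate 2 correlated across all genes at 0.40 and 0.50 with replicates 1 and 3 of its own group, which correlated at 0.73 with each other, and at 0.81 to 0.84 with the 3 arrays of ITD00185 at 96 h. On this array the median ribosomal protein gene stood at the 72.1 percentile of all genes, against 90.7 and 80.4 on replicates 1 and 3. The counts at 48 h are given with and without it, and so are the named genes whose call it changed. Its part in them beyond these values was not tested.

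On every array the ribosomal protein genes stood high in the ratio to the mix, with the median gene above the median of all genes on 12 of 12 arrays. The culture always carried Cy5 and the makeup of the mix is not known. An offset of dye or mix therefore cannot be told apart from expression in this height. At 48 h the median gene was at 1.22, 0.85 and 0.76 on the ITD00185 arrays and at 1.87, 1.58 and 1.46 on the T73 arrays. The T73 values were all higher, but T73 arrays of this time also had the widest spread of all genes. A percentile within an array changes neither with centring nor with scaling. It still depends on how widely the other genes of the array spread around the ribosomal protein genes. By rank the strains overlapped at 48 h, with the median gene at the 79.2, 72.7 and 78.1 percentile in T73 beside the ITD00185 values above. The overlap came from the replicate that stood apart, and the other ITD00185 arrays lay above all 3 of T73. At 96 h they did not overlap by rank. The median gene was at the 65.2, 71.3 and 69.7 percentile in ITD00185 and at the 89.9, 87.0 and 92.9 percentile in T73. In log2 ratios the medians of 96 h were 0.47, 1.03 and 0.80 in ITD00185 and 1.57, 1.42 and 1.53 in T73, again without overlap. The difference of the mean percentile between the strains was 4.40 points at 48 h and -21.2 points at 96 h, and with single arrays left out it ran from -0.416 to 8.88 and from -22.7 to -19.5.

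**Figure D1:**
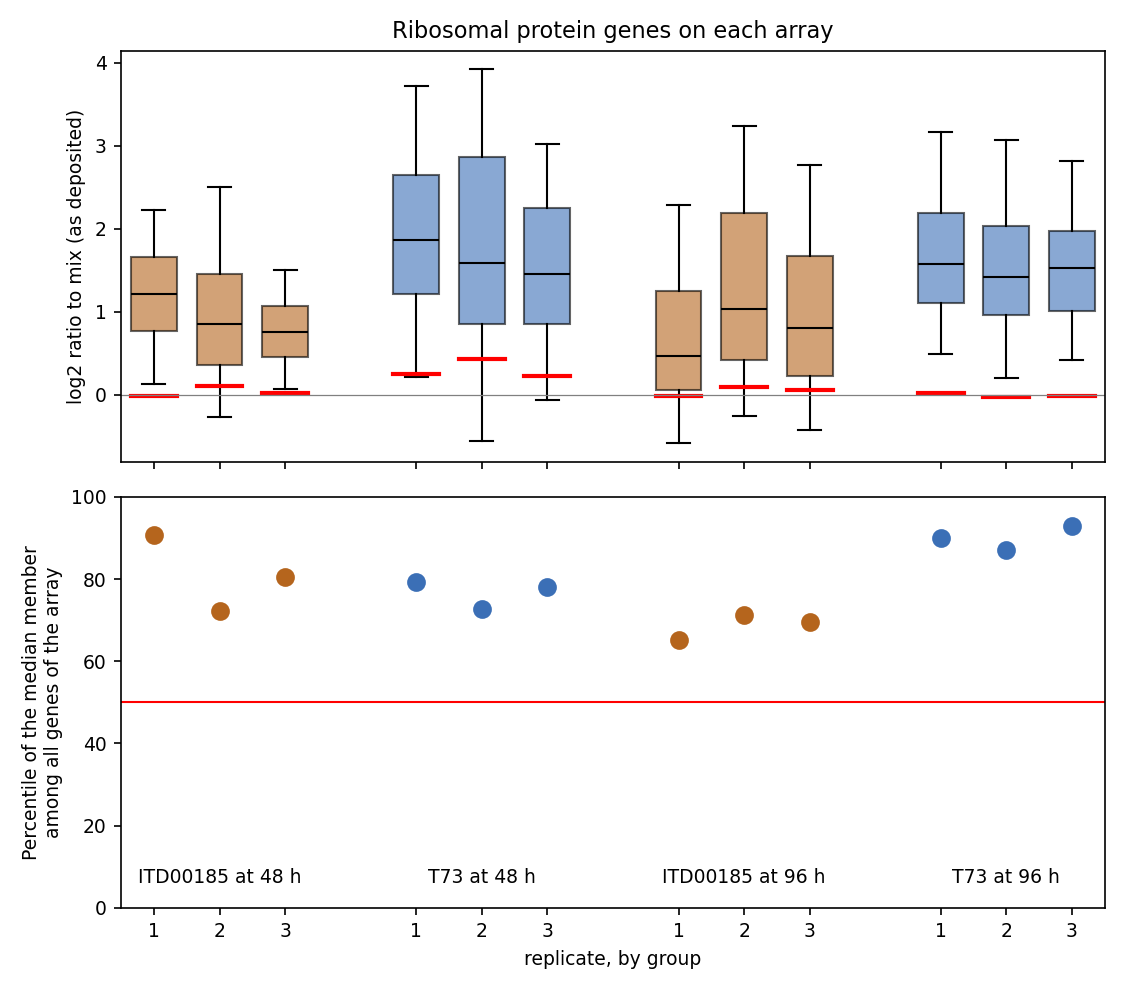
Ribosomal protein genes on each of the 12 arrays, brown for ITD00185 and blue for T73. Above, the log2 ratio to the mix as deposited, with boxes from the lower to the upper quartile over the genes, whiskers from the 5th to the 95th percentile, black lines at the median and red bars at the median of all genes of that array. Below, the percentile of the median ribosomal protein gene among all genes of the array, with the red line at 50. The percentiles overlap at 48 h, and at 96 h all 3 of ITD00185 (65.2 to 71.3) lie below all 3 of T73 (87.0 to 92.9).

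At 96 h ribosomal protein genes of both subunits were lower in ITD00185 than in T73. Of 126 genes 45 were called lower, against 10.5% of all genes, and 2 were called higher, against 12% of all genes. With scaled arrays 66 were lower (10.7% of all genes) and 0 higher (12.2% of all genes), while 3 were higher at limma's unadjusted p under 0.05. The 2 settings shared 43 of the lower genes. The median difference was -0.62 as deposited and -1.17 scaled, where the median of all genes was -0.01 and -0.03. Of the 45 lower calls 21 held with each array left out, and of the 66 with scaled arrays 32 held.

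Large subunit genes with some of the largest differences at 96 h were RPL23B, RPL23A and RPL10. RPL23A and RPL23B encode uL14, a large subunit protein at the interface between the subunits. RPL23B stood at 0.65, 0.68 and 0.42 on the ITD00185 arrays of 96 h and at 3.06, 2.70 and 3.13 on those of T73. The lowest T73 value lay far above the highest ITD00185 value, and the difference was -2.38 ± 0.29 (limma, adjusted p = 0.000616). RPL23A gave 0.60, 0.57 and 0.45 against 2.90, 2.36 and 2.77, without overlap, and a difference of -2.13 ± 0.28 (adjusted p = 0.000913). The copies are nearly identical and may not be 2 measurements. RPL10 encodes uL16, which joins the large subunit late in its assembly and lies near the peptidyl transferase centre. Its values were 0.17, 0.53 and 0.36 in ITD00185 and 2.45, 1.75 and 2.15 in T73. The strains did not overlap, and the difference was -1.76 ± 0.26 (adjusted p = 0.00174). These 3 genes were also lower with scaled arrays, at -3.06, -2.75 and -2.27, and all these calls held.

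Small subunit genes gave differences of the same size. RPS22A, for uS8, had the largest one of all, with 0.50, 1.23 and 0.98 in ITD00185 against 3.46, 3.20 and 3.85 in T73, no overlap and a difference of -2.60 ± 0.45 (adjusted p = 0.00339). RPS21A encodes eS21, which is needed for the maturation of the small subunit's RNA. It stood at -0.02, 0.36 and 0.14 in ITD00185 and at 1.88, 2.04 and 1.90 in T73, which did not overlap, and differed by -1.78 ± 0.25 (adjusted p = 0.00119). RPS27B, for eS27, gave -0.70, -0.13 and -0.45 against 1.36, 1.06 and 1.55. Its strains were again apart, by -1.75 ± 0.33 (adjusted p = 0.0048). With scaled arrays these were -3.44, -2.22 and -2.03, and the calls of these 3 genes held in both settings. RPL30, whose protein binds its own transcript and blocks its splicing when in excess, was below the mix on all 3 ITD00185 arrays, at -0.88, -0.12 and -0.67, and above it in T73, at 1.21, 0.99 and 1.28. It differed by -1.72 ± 0.37 (adjusted p = 0.00929), and scaled by -1.95, and held in both settings.

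Higher in ITD00185 at 96 h were RPL13A and RPL19A as deposited, and neither with scaled arrays. RPL13A, for eL13, stood at 0.57, 1.00 and 0.73 in ITD00185 and at -0.52, 0.05 and -0.01 in T73, without overlap, and differed by 0.93 ± 0.29 (adjusted p = 0.044). RPL19A, for eL19, which forms a bridge between the subunits, gave 1.89, 2.56 and 1.99 against 0.80, 1.58 and 0.48. Its arrays did not overlap either, and it differed by 1.19 ± 0.39 (adjusted p = 0.0471). Scaled, they were at 0.82 (adjusted p = 0.0531) and 0.74 (adjusted p = 0.112). Each lost its call as deposited in 8 of 12 fits without 1 array, RPL13A over differences of 0.75 to 1.03 and RPL19A over 0.95 to 1.50. Both calls were lost without any single ITD00185 array of 96 h, ITD00185 48 h replicate 3, T73 48 h replicate 1, T73 96 h replicate 1 or T73 96 h replicate 3, that of RPL13A also without T73 96 h replicate 2 and that of RPL19A without ITD00185 48 h replicate 1.

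The non-overlap of the arrays counts genes without a model. Among 128 ribosomal protein genes with all 6 values of 96 h, every ITD00185 array lay below every T73 array for 69 as deposited (29.7% of all genes did so) and above for 11 (27.9%). With scaled arrays the counts were 90 below (29.3%) and 5 above (26.7%), and by percentile within the array 90 below (30.5%) and 5 above (25.5%). The number of lower calls at 96 h depended on single arrays. It was 25 without ITD00185 96 h replicate 1, 29 without its replicate 3, 21 without T73 96 h replicate 1, 24 without its replicate 3 and 57 without ITD00185 48 h replicate 2. Over all genes the lower share in these fits was 6.87%, 5.64%, 4.82%, 5.22% and 16%, so that it moved the same way. With scaled arrays the count was 35, 38, 33, 37 and 80 in the same order, and the share of all genes was 5.57%, 5.19%, 5.06%, 5.57% and 17.4%.

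At 48 h the direction of the median depended on the scaling of the arrays, and 54 of 126 ribosomal protein genes (42.9%) had the other sign when scaled. The share of all genes whose sign turned is not given, so the count is not a trait of these genes alone. As deposited, 54 were lower in ITD00185 (26.7% of all genes) and 3 higher (12.9%), with a median of -0.76, but with scaled arrays 5 were lower (13.1%) and 4 higher (9.81%), with a median of 0.15. Over all genes the median difference at 48 h was -0.32 as deposited, -0.06 scaled and -0.05 with each array centred. Of the 54 genes called lower as deposited, 12 had a difference above 0 with scaled arrays, and 5 were called lower in both settings. Those 5 were RPL27A, RPS10A, RPS21A, RPS21B and RPS26B, and RPL13A, RPL4A and RPL4B were among the 4 higher with scaled arrays. Non-overlap moved in the same way, with 53 genes of 125 below and 3 above as deposited (26.1% and 14.7% of all genes), 9 and 6 scaled (16.5% and 15.3%), and 11 and 5 by percentile (15.8% and 16.3%).

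Without ITD00185 48 h replicate 2 the values as deposited gave 52 lower (32% of all genes) and 9 higher (19.7%), with a median of -0.69. With scaled arrays and without that replicate, 14 were lower (24.9%) and 40 higher (22.8%), with a median of 0.42. The lower count as deposited was 30 without ITD00185 48 h replicate 3, 35 without T73 48 h replicate 1 and 34 without T73 48 h replicate 2. Over all genes the lower share in these fits was 17.9%, 22.6% and 19.7%. Of the 57 calls as deposited 30 held with each array left out, and of the 9 with scaled arrays RPL13A and RPS10A did.

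RPS10A, for eS10 in the head of the small subunit, was lower in ITD00185 at 48 h in both settings. It stood at 0.26, 1.26 and 0.15 in ITD00185 and at 3.18, 3.29 and 2.83 in T73, with no overlap. The difference was -2.54 ± 0.38 as deposited (limma, adjusted p = 0.000819) and -1.46 scaled (adjusted p = 0.00748). RPL27A, for eL27, had the largest difference of this time. Its values were 1.85, 2.89 and 1.17 in ITD00185 and 4.83, 5.40 and 5.27 in T73, far apart, for a difference of -3.20 ± 0.46 (adjusted p = 0.000673), and scaled it was -1.18 (adjusted p = 0.0321). The scaled call of RPL27A was lost without ITD00185 48 h replicate 3 and without each T73 array of 48 h. RPS26B, for eS26, which lines the path of the messenger RNA at its exit from the small subunit, stood at 1.67, 2.84 and 1.26 in ITD00185 and at 4.62, 5.84 and 4.56 in T73. The groups did not overlap, and the difference was -3.08 ± 0.52 (adjusted p = 0.00159), and -1.10 scaled (adjusted p = 0.0304), a scaled call lost without ITD00185 48 h replicates 1 or 3 or T73 48 h replicates 2 or 3.

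RPS21A was the one gene called lower at both times in both settings by the full set of arrays. At 48 h it stood at 0.13, 0.16 and 0.07 in ITD00185 and at 1.35, 1.26 and 2.03 in T73. The arrays did not overlap, and the difference was -1.43 ± 0.25 (adjusted p = 0.00182) as deposited and -0.82 scaled (adjusted p = 0.0373). The scaled call at 48 h was lost in 10 of 12 fits without 1 array, all except those without ITD00185 48 h replicate 2 or T73 48 h replicate 2, while the other 3 calls held. As deposited 15 genes were lower at both times, among them RPL10, both copies of RPL23, RPL42 and RPS23, and with scaled arrays 4 were, RPL27A, RPS10A, RPS21A and RPS21B. The share of all genes lower at both times is not given here, so these counts have no background beside them. At 48 h and 96 h taken singly, 26.7% and 10.5% of all genes were lower as deposited, and 13.1% and 10.7% scaled.

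Large differences that were lower as deposited but not called with scaled arrays at 48 h included RPL15B, RPS30B and RPL25. RPL15B, for eL15, stood at 2.86, 1.55 and 1.05 in ITD00185 and at 4.92, 5.62 and 3.54 in T73, without overlap. It differed by -2.87 ± 0.60 (adjusted p = 0.00464) and scaled by -0.82 (adjusted p = 0.345). RPS30B, for eS30, gave -0.10, 1.89 and -0.19 against 2.33, 3.09 and 2.91, and differed by -2.24 ± 0.55 (adjusted p = 0.0095) and scaled by -1.36 (adjusted p = 0.0757). Its second ITD00185 value, the high one, came from the replicate that stood apart. RPL25, for uL23 at the exit of the peptide tunnel, where the signal recognition particle docks, gave 0.94, 0.84 and 0.78 against 2.64, 2.93 and 2.29. It did not overlap either and differed by -1.77 ± 0.29 (adjusted p = 0.00132) and scaled by -0.61 (adjusted p = 0.0866). At 96 h RPL25 was at -0.38 ± 0.29 (adjusted p = 0.347), and scaled at -0.92 (adjusted p = 0.0205).

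RPL10 was among the genes whose difference turned with the scaling. At 48 h it stood at 1.66, 1.02 and 1.19 in ITD00185 and at 2.36, 2.66 and 2.62 in T73, apart in every array, with a difference of -1.25 ± 0.26 (adjusted p = 0.00463), but 0.04 with scaled arrays (adjusted p = 0.947). As a percentile within the array, the same values were 95.4, 76.3 and 90.0 in ITD00185 and 85.3, 85.8 and 91.7 in T73, which overlap. At 96 h the percentiles were 56.4, 60.6 and 59.1 against 96.1, 90.8 and 96.9, which do not.

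Higher in ITD00185 at 48 h in both settings were RPL13A, RPL4A and RPL4B. RPL13A stood at 0.46, 0.62 and 0.67 in ITD00185 and below the mix in T73, at -1.02, -1.84 and -0.84. The strains did not overlap, the difference was 1.82 ± 0.29 (adjusted p = 0.00128), and 1.83 scaled (adjusted p = 0.00167), and it held in both. RPL4A and RPL4B encode uL4, whose long loop lines the peptide exit tunnel. RPL4B gave 1.58, 0.40 and 1.03 in ITD00185 and 0.24, -0.45 and 0.20 in T73, a narrow gap. It differed by 1.01 ± 0.32 (adjusted p = 0.0278) and scaled by 1.57 (adjusted p = 0.0251). RPL4A gave 2.07, 0.21 and 1.59 against 0.22, -0.56 and -0.11, which overlapped at the replicate that stood apart, and differed by 1.44 ± 0.42 (adjusted p = 0.02) and scaled by 2.13 (adjusted p = 0.0257). The deposited calls of both RPL4 copies were lost without ITD00185 48 h replicates 1 or 3 or T73 48 h replicate 2, with RPL4B at 0.72 to 1.31 over the 12 fits. The scaled calls were lost without the same arrays, and that of RPL4A also without T73 48 h replicate 3.

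Without ITD00185 48 h replicate 2 further named genes passed the threshold. At 48 h as deposited RPS12 was then higher, at 1.24 (limma, adjusted p = 0.027), and RPL19A lower, at -1.15 (adjusted p = 0.0266), while RPL23B, at -0.81 (adjusted p = 0.0502), was no longer called. With scaled arrays RPS30B (-2.03, adjusted p = 0.00121), RPS7B (-1.47, adjusted p = 0.00283), RPS27A (-1.26, adjusted p = 0.00811), RPL24B (-1.43, adjusted p = 0.00842) and RPL31A (-0.99, adjusted p = 0.0243) were lower at 48 h in that fit. RPL3 (1.48, adjusted p = 0.00447), RPL31B (1.30, adjusted p = 0.00575), RPS12 (1.82, adjusted p = 0.00912) and RPS3 (1.14, adjusted p = 0.0354) were higher. The RNase P gene RPP1 was also higher, at 1.59 (adjusted p = 0.021). At 96 h, where the differences themselves stayed as they were, RPL3, RPP0 and RPS12 were then lower in both settings and RPP2B with scaled arrays too. RPL24A was then higher at 96 h in both settings, RPL24B as deposited and RPL13A with scaled arrays.

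**Figure D2:**
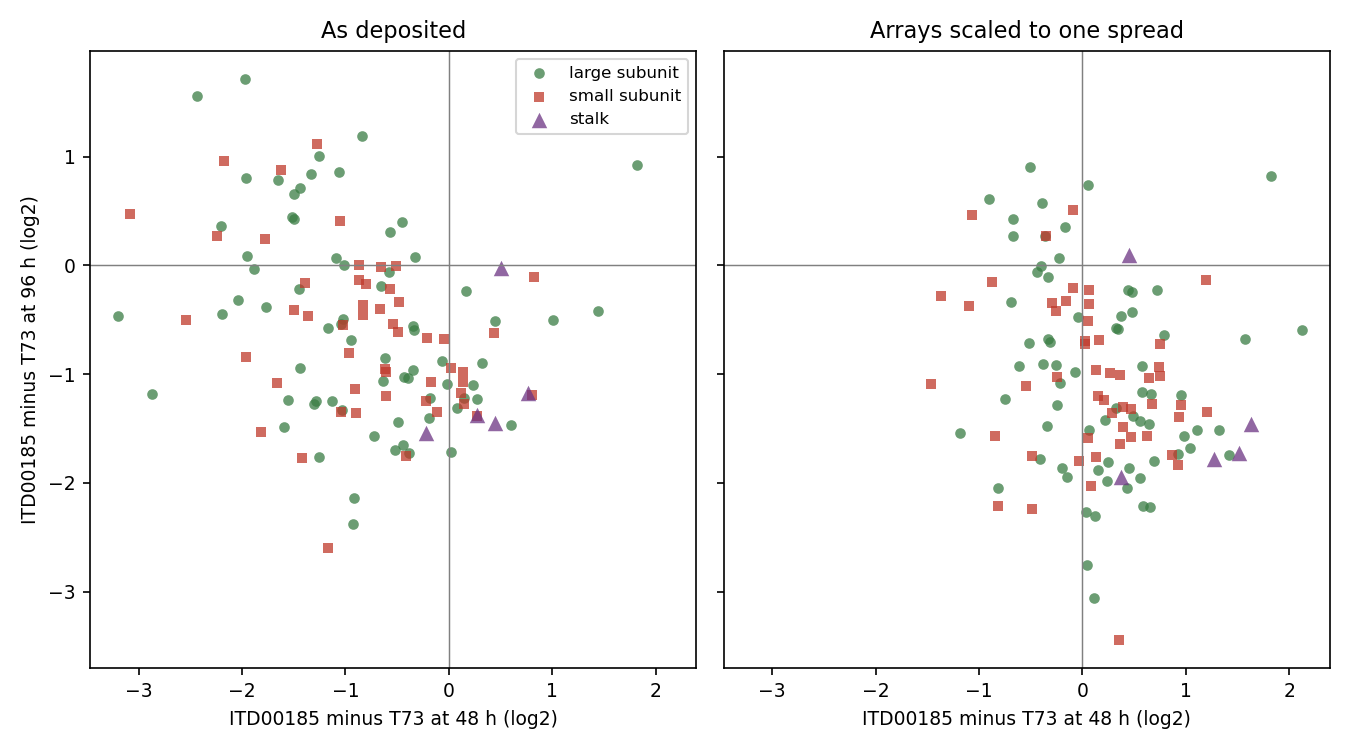
Strain differences of the 126 tested ribosomal protein genes, ITD00185 minus T73 in log2, at 48 h on the horizontal and at 96 h on the vertical axis, as deposited on the left and with arrays scaled to one spread on the right. Green circles are large subunit, red squares small subunit and purple triangles stalk genes. The medians at 48 h are -0.76 as deposited and 0.15 scaled, so that the cloud moves across the vertical line, and at 96 h -0.62 and -1.17, below the horizontal line in both.

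Whether the strain difference itself changed from 48 h to 96 h was tested as an interaction, the difference at 96 h minus that at 48 h. As deposited 17 ribosomal protein genes had a lower difference at 96 h (13.6% of all genes) and 28 a higher one (24.4%), with a median of 0.01 against 0.20 over all genes. With scaled arrays 59 were lower (8.79%) and 0 higher (13.4%), while 6 were higher at limma's unadjusted p under 0.05, and the median was -1.39 against -0.05. All 17 lower genes as deposited were among the 59, and 8 of the 28 higher ones had the other sign when scaled. Without ITD00185 48 h replicate 2 the counts were 37 lower (23.1%) and 31 higher (29.9%) as deposited, and 74 lower (24.8%) and 7 higher (24.1%) scaled. With other single arrays left out the lower count fell as far as 3 as deposited, without T73 96 h replicate 1, and 17 scaled, without T73 48 h replicate 2 or T73 96 h replicate 3. Over all genes the lower share in these fits was 6.92%, 2.61% and 2.65%.

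The upward changes were led by RPL24B, RPL24A, RPS26B and RPS7B. RPL24A and RPL24B encode eL24, another bridge between the subunits. RPL24B stood at 1.10, 2.91 and 0.60 in ITD00185 against 4.48, 4.70 and 2.75 in T73 at 48 h, and at 3.47, 4.71 and 3.72 against 2.42, 2.78 and 2.04 at 96 h. The order of the strains turned, with overlap at 48 h and none at 96 h, and the change was 3.99 ± 0.91 (limma, adjusted p = 0.0091). RPL24A gave 1.26, 2.75 and 0.74 against 3.67, 4.41 and 2.58 at 48 h, and 3.18, 4.39 and 3.37 against 1.84, 2.39 and 1.56 at 96 h, the same turn, with a change of 3.69 ± 0.82 (adjusted p = 0.00828). RPS26B was the third, with 2.10, 3.67 and 2.89 in ITD00185 and 2.48, 2.80 and 1.96 in T73 at 96 h. These overlapped, unlike at 48 h, and the change was 3.55 ± 0.74 (adjusted p = 0.00623). RPS7B, for eS7, stood at 0.36, 1.82 and 0.34 against 2.87, 3.62 and 2.56 at 48 h, and at 1.18, 2.54 and 2.39 against 0.89, 1.39 and 0.93 at 96 h. It was apart at 48 h and overlapped at 96 h, with a change of 3.14 ± 0.68 (adjusted p = 0.00745). All 4 calls held as deposited, and with scaled arrays the changes were 1.52, 1.41, 0.73 and 1.53, none of them called (adjusted p = 0.101, 0.0844, 0.233 and 0.0537). Without the replicate that stood apart, the scaled changes of RPL24B (2.05, adjusted p = 0.00601), RPL24A (1.81, adjusted p = 0.00935) and RPS7B (1.94, adjusted p = 0.00311) were called.

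Among the called downward changes the largest were those of RPS12, RPP0, RPP2A and RPL4A. RPS12, for eS12 in the head of the small subunit, stood at 1.64, -0.29 and 0.38 in ITD00185 and at -0.07, -0.88 and 0.28 in T73 at 48 h. At 96 h it stood at -0.54, -0.26 and -0.43 against 0.75, 0.97 and 0.64. The arrays overlapped at 48 h and were apart at 96 h, and the change was -1.99 ± 0.63 (adjusted p = 0.0301), and -2.55 scaled (adjusted p = 0.0396). RPL4A changed by -1.86 ± 0.59 (adjusted p = 0.0312) and scaled by -2.72 (adjusted p = 0.0376), from its higher values at 48 h to 0.30, 0.07 and 0.13 against 0.76, 0.27 and 0.72 at 96 h, which overlapped. The deposited call of RPS12 was lost in 8 and that of RPL4A in 7 of 12 fits without 1 array, among them those without ITD00185 48 h replicate 1, T73 48 h replicate 2 and T73 96 h replicates 1 or 3. RPS12 then ranged from -2.43 to -1.46 and RPL4A from -2.40 to -1.47.

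The stalk is the flexible arm of the large subunit that recruits the translation factors, with RPP0 (uL10) as its base and RPP1A, RPP1B, RPP2A and RPP2B as the acidic P proteins bound to it. At 96 h 3 of its 5 genes were lower in ITD00185 as deposited, against 10.5% of all genes. With scaled arrays 2 were, RPP1A and RPP2A, against 10.7%. RPP1A stood at 0.12, 0.35 and 0.12 in ITD00185 and at 1.84, 1.60 and 1.77 in T73, wide apart, and differed by -1.54 ± 0.34 (adjusted p = 0.00951), a call that held. RPP2A gave -0.09, 0.15 and -0.10 against 1.53, 1.23 and 1.55, also apart, and differed by -1.45 ± 0.37 (adjusted p = 0.0194). RPP2B gave 0.06, 0.27 and -0.04 against 1.45, 1.35 and 1.64, again apart, and differed by -1.38 ± 0.39 (adjusted p = 0.028) and scaled by -1.73 (adjusted p = 0.0591). The calls of RPP2A and RPP2B were lost without any single array of ITD00185 at 96 h, T73 96 h replicate 1 or T73 96 h replicate 3, and that of RPP2B also without T73 96 h replicate 2, over differences of -1.56 to -1.39 and of -1.47 to -1.30.

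RPP0 did not overlap at 96 h either, with 0.20, 0.21 and -0.27 in ITD00185 and 1.20, 1.05 and 1.41 in T73, but its difference of -1.17 ± 0.46 missed the threshold (adjusted p = 0.086). RPP1B was the exception among the P proteins, below the mix on all 12 arrays. Its values at 96 h were -0.56, -0.51 and -0.51 in ITD00185 and -0.40, -0.21 and -0.89 in T73, which overlapped, for a difference of -0.02 ± 0.24 (adjusted p = 0.953).

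With all 12 arrays 0 of 5 stalk genes were called in either direction at 48 h, and 0 passed limma's unadjusted p under 0.05 as deposited, while 3 were higher at that p with scaled arrays. RPP0 stood at 2.21, 0.23 and 1.50 in ITD00185 and at 0.77, -0.12 and 1.01 in T73, which overlapped, and differed by 0.76 ± 0.46 (adjusted p = 0.2). RPP2A gave 2.03, 0.51 and 1.00 against 1.25, 0.32 and 0.64, for 0.45 ± 0.37 (adjusted p = 0.351). RPP2B, RPP1B and RPP1A were at 0.27 ± 0.39, 0.50 ± 0.24 and -0.22 ± 0.34 (adjusted p = 0.597, 0.113 and 0.618), the last with the other sign, 0.37, when scaled. In each of RPP0, RPP2A, RPP2B and RPP1A the replicate that stood apart was the lowest ITD00185 array of 48 h. Without it 4 of 5 stalk genes were called higher at 48 h with scaled arrays, against 22.8% of all genes. They were RPP0 at 2.49 (adjusted p = 0.000581), RPP2B at 2.28 (adjusted p = 0.00193), RPP2A at 1.87 (adjusted p = 0.0038) and RPP1A at 0.88 (adjusted p = 0.0465). As deposited 2 were then higher (19.7% of all genes), RPP0 at 1.31 (adjusted p = 0.0124) and RPP1B at 0.63 (adjusted p = 0.0491).

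The change from 48 h to 96 h was called downward for 4 of 5 stalk genes in both settings, all but RPP1B (-0.53 ± 0.34, adjusted p = 0.23). Of all genes 13.6% were called downward as deposited and 8.79% scaled. RPP2A changed by -1.90 ± 0.53 (adjusted p = 0.019), and scaled by -3.06, and held in both. RPP0 changed by -1.93 ± 0.65 (adjusted p = 0.0376) and scaled by -3.09 (adjusted p = 0.0304), RPP2B by -1.65 ± 0.55 (adjusted p = 0.0367) and RPP1A by -1.32 ± 0.48 (adjusted p = 0.0484). The deposited calls of RPP0, RPP2B and RPP1A were lost in 10, 9 and 10 of 12 fits without 1 array, each of them without any single array of 96 h, and RPP0 then ranged from -2.48 to -1.48.

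The subunits as wholes lay close together. At 96 h 27 of 75 large subunit genes were lower and 2 higher as deposited, with a median of -0.59, and 18 of 51 small subunit genes were lower and 0 higher, with a median of -0.63. With scaled arrays 40 and 26 were lower, with medians of -1.19 and -1.09. Of all genes 10.5% were lower and 12% higher at this time as deposited, and 10.7% and 12.2% scaled. Neither subunit had a higher call when scaled, while 3 large and 0 small subunit genes were higher at limma's unadjusted p under 0.05, and as deposited that count was 5 and 0. At 48 h as deposited 33 large subunit genes were lower and 3 higher, with a median of -0.73 that was 0.23 when scaled, and 21 small subunit genes were lower and 0 higher (1 at the unadjusted p), with a median of -0.80 that was 0.14 when scaled. Of all genes 26.7% were lower and 12.9% higher at 48 h as deposited. Within single arrays the median of the large subunit lay above that of the small one on 11 of 12 arrays, by 0.05 to 0.32, and below it by 0.05 on ITD00185 48 h replicate 2. No test was made between the subunits.

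Of the 54 pairs of A and B copies on the array 50 had both copies tested. At 96 h the copies lay close together, with a median gap between the strain differences of A and B of 0.24, and 38 pairs closer than 0.5. Both copies were called lower or both higher in 14 pairs, A alone in 8, B alone in 5 and neither in 23, and the sign was the same in 43 of 50. Across the 50 pairs the differences of A and B correlated at 0.80, as a description over genes whose probes may share transcripts. At 48 h the median gap was 0.32, with 32 pairs closer than 0.5, both copies called one way in 18 and opposite ways in 1, which was RPL13, A alone in 4, B alone in 6 and neither in 21, the same sign in 41, and a correlation of 0.41. With scaled arrays both copies were called in 2 pairs at 48 h and in 22 at 96 h. The median of B minus A was 0.01 at 48 h, with B lower in 25 of 50 pairs, and 0.05 at 96 h, with B lower in 21. For the change between the times it was 0.15, with B lower in 16 of 50, and no test was made of these medians.

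Among A and B copies the widest split was that of RPL13. At 48 h RPL13A was higher in ITD00185 as given above, while RPL13B stood at 1.21, 2.16 and 0.98 in ITD00185 and at 4.58, 3.91 and 2.48 in T73, apart, and differed by -2.21 ± 0.51 (adjusted p = 0.00742). The gap between the copies in the strain difference was 4.03. Within arrays, where centring has no effect, B exceeded A by 0.74, 1.53 and 0.31 in ITD00185 and by 5.59, 5.75 and 3.32 in T73. The order B above A was the same on all these arrays, and its size did not overlap between the strains. With scaled arrays RPL13A kept its difference, and RPL13B was at -0.69 (adjusted p = 0.157), a gap of 2.52. At 96 h B exceeded A by 1.46, 1.99 and 1.48 in ITD00185 and by 2.42, 2.38 and 1.82 in T73, and RPL13B was at 0.36 ± 0.51 (adjusted p = 0.629), or -0.34 scaled.

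RPL31 and RPS26 followed at 48 h. RPL31A, for eL31 near the exit of the peptide tunnel, stood at 1.18, 2.22 and 0.74 in ITD00185 and at 3.72, 3.92 and 3.09 in T73, apart, and differed by -2.19 ± 0.44 (adjusted p = 0.00403), or -0.75 scaled (adjusted p = 0.11). RPL31B gave 0.80, -0.42 and 0.60 against -0.22, -0.63 and 0.50, which overlapped, for a difference of 0.44 ± 0.37 (adjusted p = 0.346). RPS26A gave 1.15, 1.72 and 0.90 against 2.65, 2.32 and 1.96, apart, and differed by -1.05 ± 0.33 (adjusted p = 0.0269), but by 0.06 with scaled arrays. Its call was lost without ITD00185 48 h replicates 1 or 3 and without T73 48 h replicates 1 or 2, over -1.29 to -0.88. Its partner RPS26B was lower by 3.08 at the same time, as given above, and B exceeded A by 0.52, 1.12 and 0.36 in ITD00185 and by 1.98, 3.52 and 2.60 in T73, without overlap.

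At 96 h the widest gaps were those of RPS27, RPP1A with RPP1B, and RPS7. RPS27A stood at 0.49, 1.39 and 1.87 in ITD00185 and at 0.92, 1.09 and 1.01 in T73, which overlapped, and differed by 0.25 ± 0.43 (adjusted p = 0.702), while RPS27B was lower as given above. The gap was 2.00, and within arrays B lay below A by 1.20, 1.52 and 2.32 in ITD00185, where T73 had B minus A of 0.44, -0.03 and 0.54. RPS7A gave 0.75, 2.11 and 1.69 against 1.97, 1.79 and 2.02 and differed by -0.41 ± 0.37 (adjusted p = 0.43), or -1.03 scaled (adjusted p = 0.0253). RPS7B differed by 0.96 ± 0.48 (adjusted p = 0.165), or 0.47 scaled (adjusted p = 0.383). Neither copy of RPS7 was called at 96 h as deposited.

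**Figure D3:**
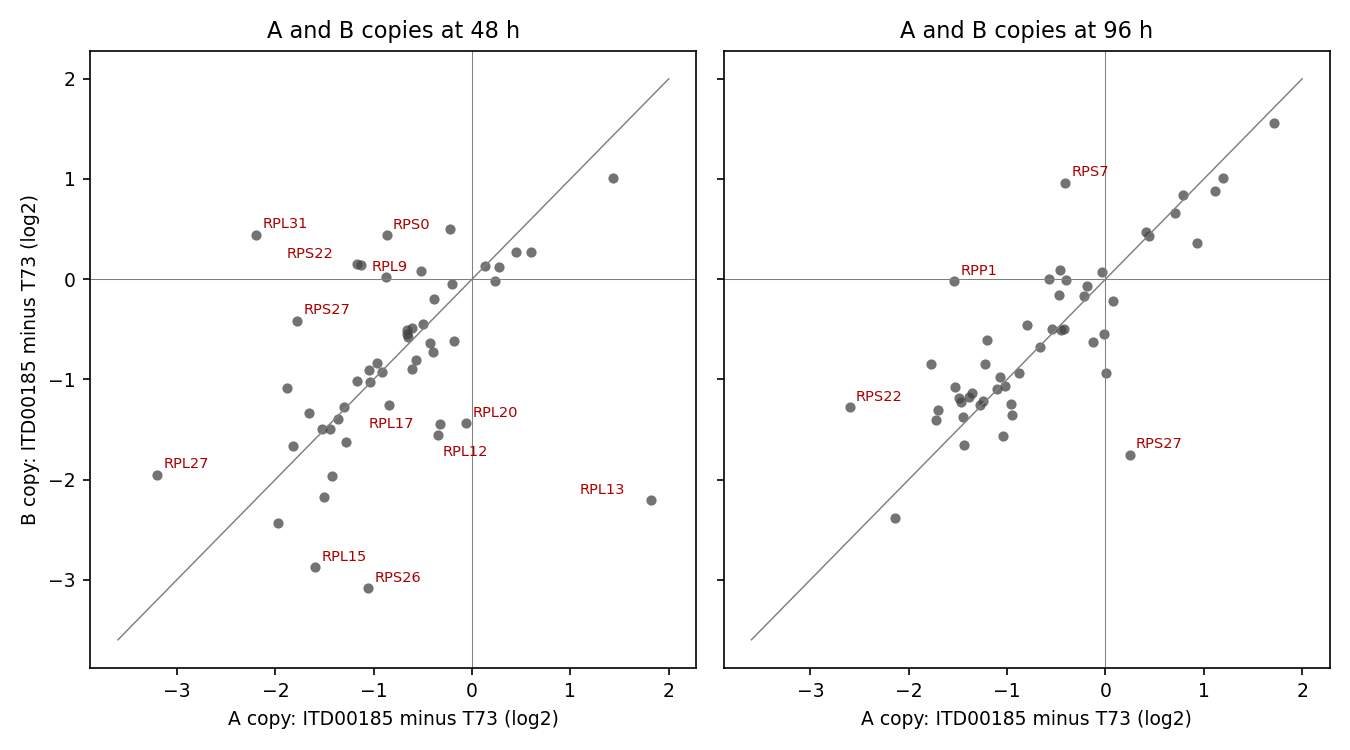
Strain differences of A and B copies in 50 pairs, ITD00185 minus T73 in log2 as deposited, A on the horizontal and B on the vertical axis, at 48 h on the left and 96 h on the right. The grey diagonal marks equal values, and pairs more than 1 apart are named by their stem, so that RPP1 stands for RPP1A and RPP1B. More pairs stand off the diagonal at 48 h (12) than at 96 h (4), with RPL13 farthest at a gap of 4.03.

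Proteins with a role of their own were looked at by name. RPL3, for uL3 at the peptidyl transferase centre, gave 1.53, 0.13 and 0.69 in ITD00185 against 0.62, 0.30 and 0.47 in T73 at 48 h, and 0.28, 0.44 and 0.15 against 1.31, 1.28 and 0.95 at 96 h. The arrays of 96 h were apart, but the differences of 0.32 ± 0.32 and -0.89 ± 0.32 missed the threshold (adjusted p = 0.44 and 0.0665). RPS3, for uS3 at the entry of the messenger RNA channel, was at -0.49 ± 0.40 and -0.33 ± 0.40 (adjusted p = 0.345 and 0.566), the first with the other sign, 0.74, when scaled. RPL30 was at 0.02 ± 0.37 at 48 h (adjusted p = 0.97), and its change to 96 h was -1.74 ± 0.53 (adjusted p = 0.0265).

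RPS31 encodes a small subunit protein made as a fusion with ubiquitin. It stood at 2.08, 1.67 and 1.28 in ITD00185 and at 2.70, 2.96 and 2.45 in T73 at 48 h, apart, and differed by -1.03 ± 0.32 (adjusted p = 0.0271), but by 0.39 with scaled arrays (adjusted p = 0.416). Its call was lost without ITD00185 48 h replicate 3 and T73 48 h replicates 1 or 2. At 96 h it gave 1.63, 2.59 and 1.60 against 2.69, 2.50 and 2.27, which overlapped, at -0.55 ± 0.32 (adjusted p = 0.229), and scaled at -1.30 (adjusted p = 0.0215). RPL22B, for eL22, was not called, at 0.16 ± 0.23 and -0.24 ± 0.23 (adjusted p = 0.587 and 0.468). RPP1, the RNase P subunit that only shares the symbol, was at 0.68 ± 0.50 and 0.68 ± 0.50 (adjusted p = 0.289 and 0.34).

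**Figure D4:**
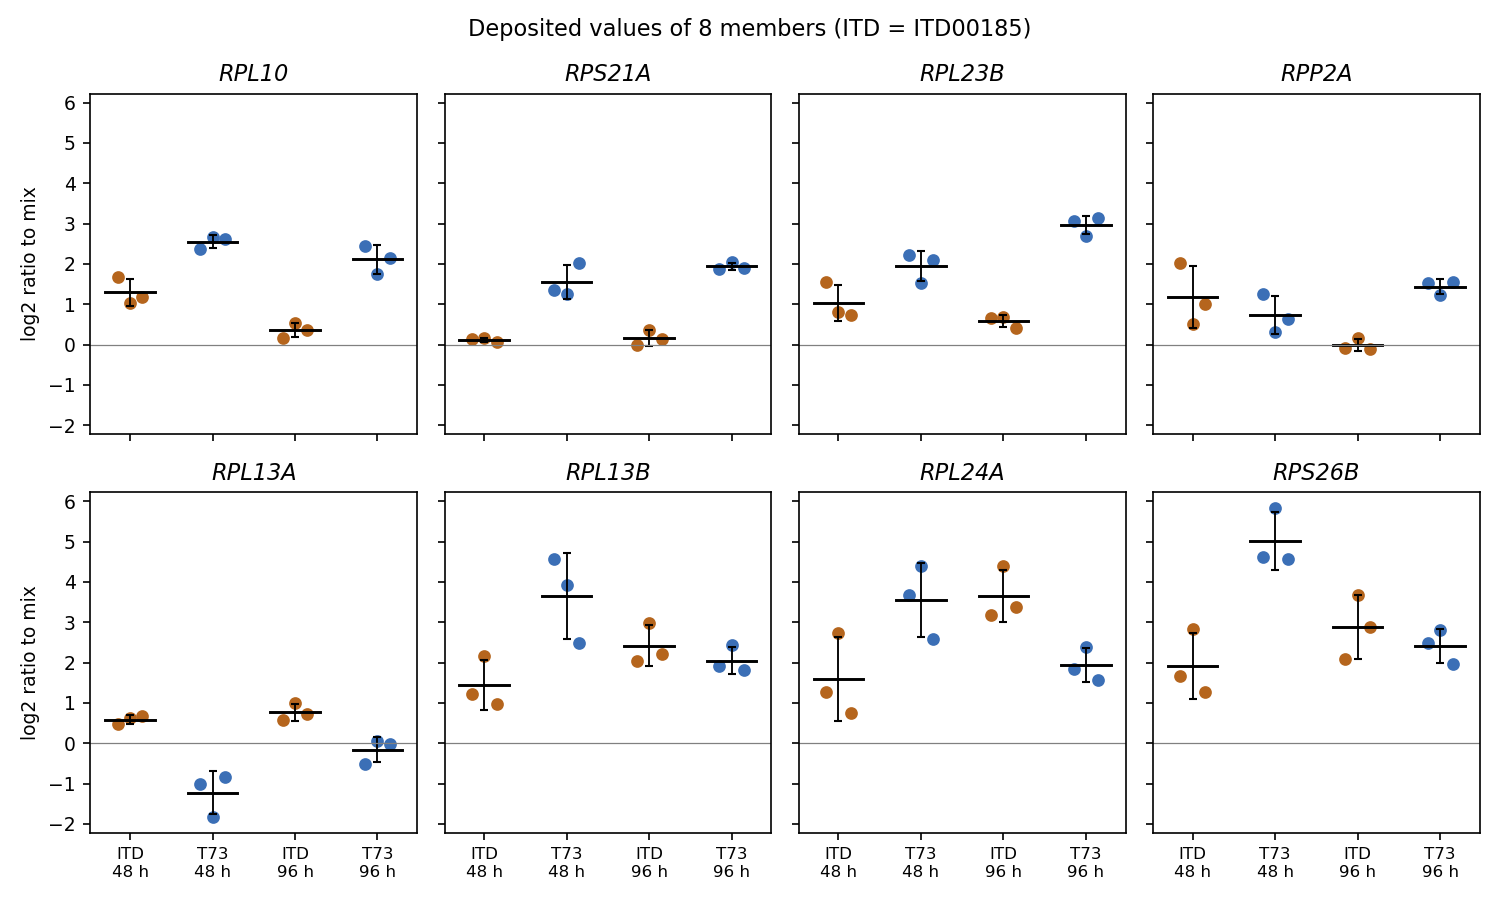
Log2 ratio to the mix, as deposited, of 8 ribosomal protein genes in the 4 groups, brown for ITD00185 and blue for T73. Points are the 3 arrays of a group, bars their mean and error bars their SD. RPS21A is low in ITD00185 at both times (-0.02 to 0.36), RPL13A is the gene below the mix in T73 at 48 h, and in RPL24A the order of the strains turns between the times as deposited (change 3.69, scaled 1.41 and not called).

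The regulators of the ribosomal protein genes were counted in the same way. Of 22 regulators, all tested, 5 were lower and 2 higher in ITD00185 at 48 h, 1 lower and 5 higher at 96 h, and 0 changed downward (3 at limma's unadjusted p under 0.05) and 8 upward between the times. With scaled arrays the counts were 2 and 2, 1 and 5, and 1 and 6. As deposited, 26.7% of all genes were lower and 12.9% higher at 48 h, 10.5% and 12% at 96 h, and 13.6% and 24.4% changed downward and upward, against which the counts of this list and of those below stand. HMO1, a high mobility group protein at the promoters of ribosomal protein genes and ribosomal DNA, was at -2.08 at 48 h and 2.99 at 96 h (limma, adjusted p = 0.0209 and 0.00704). Its change of 5.06 (adjusted p = 0.00301), 3.99 scaled, held in both settings, while its call at 48 h was lost without ITD00185 48 h replicates 1 or 3 or T73 48 h replicates 1 or 2.

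Repressors and stress kinases of the pathway were among the genes higher in ITD00185 at 96 h. DOT6, a repressor of ribosome biogenesis genes under TOR, was at 2.73 (adjusted p = 0.00237), and YAK1, a kinase that protein kinase A opposes, at 3.91 (adjusted p = 0.000608), and these calls held in both settings. RIM15, a kinase of the entry into stationary phase, was at 1.86 (adjusted p = 0.0247), a call lost without ITD00185 96 h replicates 2 or 3 or any single T73 array of 96 h, but held when scaled, at 2.27. RPD3, a histone deacetylase, was the 1 lower regulator of 96 h, at -0.75 (adjusted p = 0.0253), lost without any single array of that time. Of the activators, FHL1 was at -1.35 at 48 h (adjusted p = 0.00631), and at -0.98 scaled, where it was not called (adjusted p = 0.0575), and IFH1 at -0.95 (adjusted p = 0.0332), and at -1.67 scaled. FHL1 lacked a value at 48 h. The call of IFH1 was lost without ITD00185 48 h replicates 1 or 3 or T73 48 h replicates 1 or 3. RAP1 and SFP1 were called at neither time, with 0.31 and -0.57 for RAP1 and -0.14 and -0.71 for SFP1 (adjusted p = 0.409, 0.168, 0.687 and 0.0769).

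Escorts bind new ribosomal proteins and carry them to the assembling subunit. Of 13 escorts 11 were tested, with 5 lower and 0 higher in ITD00185 at 48 h, 0 lower and 1 higher at 96 h and 0 changed downward and 7 upward between the times. None passed limma's unadjusted p under 0.05 on the sides counted as 0 either. With scaled arrays the counts were 2 and 0, 0 and 1, and 0 and 2, and the unadjusted ones on those sides 0, 1 and 2. RRB1, the escort of the RPL3 protein, was at -1.95 at 48 h (adjusted p = 0.000897), and scaled at -1.40, and held in both. NAP1 was at 2.80 at 96 h (adjusted p = 0.00116), scaled 2.53, and its change of 4.17 (adjusted p = 0.0017) held too.

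Of 16 factors bound to the ribosome 13 were tested, with 4 lower and 0 higher (1 at the unadjusted p) at 48 h, 2 lower and 3 higher at 96 h and 2 downward and 4 upward in the change, and 2 and 1, 1 and 2, and 3 and 2 with scaled arrays. ZUO1, a chaperone subunit of the ribosome-associated complex at the tunnel exit, was at -5.43 ± 0.46 at 48 h (adjusted p = 5.93e-05) and 3.13 ± 0.42 at 96 h (adjusted p = 0.00131). Scaled it was at -2.86 and 2.25, and all 4 calls held. The larger standard error at 48 h reflects a missing value at that time, so some fits without an array left a single value in a group. ASC1, which sits on the head of the small subunit, was at -1.57 at 96 h (adjusted p = 0.0227) and -1.84 scaled, lost in 5 of 12 fits, those without any single array of ITD00185 at 96 h or T73 96 h replicates 1 or 3. STM1, which binds idle ribosomes, was at 2.97 at 96 h (adjusted p = 0.0187), lost without ITD00185 96 h replicate 3 and T73 96 h replicates 1 or 3.

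The 6 ribosomal protein genes left untested lacked values on too many arrays. They were RPL7A, RPL22A, RPL38, RPS10B, RPS16A and RPS20. RPS20, for uS10, had 1 value in T73 at 48 h, which was 8.01, the highest of any ribosomal protein gene, beside 2.00, 2.10 and 1.47 in ITD00185 at that time. At 96 h it stood at 2.40, 3.58 and 2.77 in ITD00185 and at 3.79, 3.86 and 2.99 in T73, which overlapped. RPL22A had 1.15, 3.38 and 2.09 in ITD00185 and 1 value of 2.24 in T73 at 48 h, and 2.28, 0.95 and 2.69 against 3.83, 1.80 and 2.07 at 96 h, which also overlapped.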

How the data were processed

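The table holds 1 value per probe and array. Per the labels each array carried Cy5-labelled RNA of a culture and a Cy3-labelled mix. The authors deposited log2 ratios of the channels, judged from the values, and direction, background correction, centring and normalization are not given in the sources used here. Array medians ran from -0.03 to 0.43. Signal over background and depth are unknown, and the number of arrays limits the precision.

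Of 6246 probes, 5753 matched the RefSeq gene table by systematic name, 34 by a synonym and 459 not at all, which kept their deposited names. Probes of a gene were averaged, leaving 6214 genes, of which 31 had several probes, none of them a ribosomal protein gene. Genes with values on at least 2 arrays of each group entered limma 3.58.1 in R 4.3.3 (lmFit and eBayes, 4 group means, 8 residual and 3.16 prior degrees of freedom), which gave both strain differences and their interaction. Tables and figures were made in Python 3.11.15. Tested on simulated data of 5474 genes for the 48 h comparison, the fit called 13 of 100 genes changed by 1 and 88 of 100 changed by 3 on the log2 scale. No other genes were changed there, and the noise was normal and independent between arrays. In the data 26.7% of genes were called lower and 12.9% higher at 48 h, so these rates need not apply to them.

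The genes named were, at each time, the 6 with the largest called differences in each direction among those with all values and no overlap, the 3 pairs of copies furthest apart, the 4 largest called interactions in each direction, the genes called one way at both times in both settings, and a list by name. The genes and lists were chosen with earlier results of these data known. Alternatives were centring, scaling, quantile normalization, filters, values beyond 10 set to missing, the arrays of 1 time alone, a replicate block and each array left out. Leaving out arrays after scaling, and percentiles for the overlap, were chosen after seeing the data. No sequences are shown, and some genes that the rule names are not reported here.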

Additional observations from a re-analysis of the deposited data

Results flagged for a closer look

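For 24 of the genes named, the strain difference at 96 h differed from that at 48 h by limma's interaction test (adjusted p under 0.05, as deposited, 3 arrays per group). Some of these genes were named because of that call. Of all 126 ribosomal protein genes tested 17 were called downward and 28 upward, against 13.6% and 24.4% of all genes. The values below are the difference at 96 h minus that at 48 h for the genes named. Upward changes were 3.99 for RPL24B, 3.69 for RPL24A, 3.55 for RPS26B, 3.14 for RPS7B, 2.74 for RPL27A, 2.57 for RPL13B, 2.51 for RPS30B, 2.04 for RPS10A, 2.03 for RPL19A, 2.02 for RPS27A, 1.75 for RPL31A, 1.46 for RPS26A and 1.38 for RPL25. Downward changes were -1.99 for RPS12, -1.93 for RPP0, -1.90 for RPP2A, -1.86 for RPL4A, -1.74 for RPL30, -1.65 for RPP2B, -1.51 for RPL4B, -1.46 for RPL23B, -1.34 for RPS27B, -1.32 for RPP1A and -1.22 for RPL23A.

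With scaled arrays the 11 downward changes were all called, and none of the 13 upward ones was. Without ITD00185 48 h replicate 2 the scaled upward changes of RPL24B (2.05), RPL24A (1.81), RPS7B (1.94), RPS30B (1.75) and RPS27A (1.11) were called (limma, adjusted p = 0.00601, 0.00935, 0.00311, 0.0124 and 0.0491). With all arrays kept, the scaled changes of RPL25 (-0.31), RPL27A (-0.36), RPL31A (-0.48) and RPS26A (-0.28) had the other sign. Without that replicate these scaled changes were -0.48, -0.16, -0.24 and -0.24 in the same order. Within groups of 3 arrays no test for an outlying value of a single gene was made.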

How the results depend on the processing

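The direction at 48 h and the upward changes depended on the scaling, while the lower median at 96 h kept its direction under every alternative run. Scaled and quantile-normalized arrays gave, in this order, 5 and 4 genes lower at 48 h with medians of 0.15 and 0.23, medians of -1.17 and -1.25 with 0 and 0 genes higher at 96 h, and 59 and 61 downward and 0 and 0 upward changes with medians of -1.39 and -1.53. RPL10 (0.037 and 0.15), RPS26A (0.062 and 0.13) and RPS31 (0.39 and 0.50) turned at 48 h in both. The median of the large minus the small subunit at 96 h was -0.10 when scaled. Centred arrays gave 5 higher at 48 h and 33 downward changes. The 6 arrays of a time alone gave 23 lower and 1 higher at 48 h and 8 higher at 96 h, and no filter gave 1 higher at 96 h. Values beyond 10 set to missing, and genes measured on all 12 arrays, moved no result past its threshold. The cause of these differences was not tested. Shares of all genes are not given here for the quantile-normalized, centred, single-time and unfiltered fits, nor for the replicate block below.

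With each array left out as deposited, the lower count ran from 30 to 58 at 48 h, from 21 to 57 at 96 h and from 3 to 37 for the change, the higher count from 1 to 9, from 0 to 5 and from 14 to 32, and the median from -0.90 to -0.65, from -0.85 to -0.50 and from -0.17 to 0.20. Over all genes the lower share in these fits ran from 17.8% to 32%, from 4.82% to 16% and from 6.34% to 23.1%. The higher share ran from 8.02% to 19.7%, from 4.99% to 16.8% and from 16.8% to 29.9%. Scaled, the lower counts ran from 1 to 14, 33 to 80 and 17 to 74, the higher from 1 to 40, 0 to 2 and 0 to 7, and the medians from -0.10 to 0.42, -1.23 to -1.06 and -1.69 to -1.10. Over all genes the lower share when scaled ran from 7.36% to 24.9%, from 5.06% to 17.4% and from 2.52% to 24.8%. The higher share ran from 4.91% to 22.8%, from 6.03% to 18.3% and from 6.74% to 24.1%. Large minus small ran from -0.07 to 0.08, -0.078 to 0.046 and -0.33 to 0.064, B minus A from -0.03 to 0.01, 0.02 to 0.08 and 0.11 to 0.21, and the percentile difference from -0.416 to 8.88 and -22.7 to -19.5.

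A replicate block gave 58 lower and 3 higher at 48 h, 47 and 5 at 96 h and 20 and 29 changes. Arrays with the same number deviated together with correlations of -0.19 to 0.52 across groups, so the numbers were not taken as pairs.

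The limits are 3 arrays per group, no exchange of dyes, an unstated ratio direction and normalization, and probes not known to separate near-identical copies.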
